A study of Mus musculus with 11 samples.

Results

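Heat shock proteins, their DnaJ partners and the heat shock factors were read from ribosome-bound RNA of mouse Purkinje cells, in libraries labelled as lacking or keeping the receptor Tie2. The members were all genes whose symbol starts with Hspa, Hspb, Hsp90, Hspd1, Hspe1, Hsph1 or Dnaj, or with Hsf followed by a digit, without the 14 symbols marked as pseudogenes by -ps. This gave 81 of the 55421 genes in the files, of which 68 had enough reads to be tested. The symbol rule also takes in Hspbp1, Hsf2bp and Hspbap1, which are named for binding to or associating with a family member and are counted here apart from the families.

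The 4 knockout (KO) libraries, tagged F371, M374, M390 and M456, came from Pcp2Cre;Tie2flox/flox;Rpl22HA/HA cerebella, and the 7 wild-type (WT) libraries from Pcp2Cre;Rpl22HA/HA cerebella, all whole cerebella taken at postnatal day 56. Both genotypes therefore carry the Cre driver and the HA-tagged ribosomal protein Rpl22, and the KO differs by floxed alleles of Tie2, the angiopoietin receptor encoded by Tek. Cre under the Pcp2 promoter, active in Purkinje cells, switches on the tag, and an antibody against the tag pulled ribosomes with their RNA out of the whole tissue (the RiboTag method). Batch 1 holds 2 KO and 1 WT, batch 2 holds 1 KO and 1 WT, and batch 3 holds 1 KO and 5 WT. The labels do not say more of what separates the libraries than their tags, so the p-values measure the spread between these libraries.

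Chaperones bind unfolded stretches of other proteins. Hsp70 does so in cycles of ATP hydrolysis that DnaJ proteins (also called Hsp40) start through their J domain and that nucleotide exchange factors, among them the Hsp110 proteins, end. Hsp90 takes over many nearly folded clients, small heat shock proteins hold unfolded ones, and the chaperonin of Hspd1 and Hspe1 works in mitochondria. Heat shock factors, Hsf1 above all, bind inverted GAA units in promoters of many of these genes when proteins misfold. Purkinje cells are large neurons that translate much protein, and loss or mutation of several chaperone genes is known to harm them.

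To show what the factors are known to bind, the promoters of the members were searched for GAANNTTC, an inverted pair of GAA units that reads the same on both strands. RefSeq promoters of 250 bases before and 50 after a start site (GRCm38.p6) matched 64 of the 81 members, with 81 promoters. Of the members called in the comparison of KO with WT, 8 of the 9 higher and 7 of the 10 lower had a promoter. Hspa8, Hspa9, Hsp90aa1, Hsp90ab1, Hsf1, Hsf4, Dnajc2 and Dnajc11 were among the members without a promoter and were not searched. The letters were present in 16 of these 81 promoters (19.8%), against 2582 of 32851 promoters in the whole table (7.86%). A run of at least 3 units, with a further GAA or TTC unit in step, was present in 6 member promoters (7.41%), against 198 of all (0.603%), and these belong to Dnajb6, Hspd1, Hspe1 and Hsph1. Windows that overlap share a match, as those of Hspd1 and Hspe1 do on opposite strands and the windows of different start sites of Dnajb6 and of Hsph1 do. The 6 promoters thus hold 3 separate runs and the 198 hold 176, and the 16 promoters with GAANNTTC hold 15 separate sites and the 2582 hold 2503. Among members called in the comparison of KO with WT, Dnaja1 and Hspb8 of those higher in KO and Dnaja4 and Hspb6 of those lower in KO held the letters, 2 of 12 promoters in each direction, and of tested members that were not called 10 of 47 promoters did. These 4 promoters, chosen because they hold the letters and belong to called members of both directions, and that of Hspd1, chosen as a promoter with a longer run, are printed from 150 bases before the start site to 19 after it, with each match in capitals. The match of Hspd1 has 1 further unit in step before it and 1 after it, both left in lower case, for 4 units in all. A match describes letters and not binding, and its absence from a window says nothing of the factor.
Dnaja1, chr4:40722318-40722487, plus strand: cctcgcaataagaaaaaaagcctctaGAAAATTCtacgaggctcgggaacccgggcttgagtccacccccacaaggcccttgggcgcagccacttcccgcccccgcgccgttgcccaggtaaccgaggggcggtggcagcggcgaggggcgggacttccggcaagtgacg
Hspb8, chr5:116422845-116423014, minus strand: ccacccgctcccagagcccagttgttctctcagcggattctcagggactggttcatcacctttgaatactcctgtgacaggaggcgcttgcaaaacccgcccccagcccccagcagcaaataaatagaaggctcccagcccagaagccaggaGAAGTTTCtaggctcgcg
Dnaja4, chr9:54699409-54699578, plus strand: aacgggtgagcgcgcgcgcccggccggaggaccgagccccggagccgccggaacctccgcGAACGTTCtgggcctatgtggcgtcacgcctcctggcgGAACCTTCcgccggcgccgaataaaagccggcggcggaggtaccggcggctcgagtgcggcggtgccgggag
Hspb6, chr7:30553151-30553320, plus strand: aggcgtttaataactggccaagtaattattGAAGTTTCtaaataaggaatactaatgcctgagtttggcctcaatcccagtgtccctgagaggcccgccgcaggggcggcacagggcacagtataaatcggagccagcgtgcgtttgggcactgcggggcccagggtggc
Hspd1, chr1:55087913-55088082, minus strand: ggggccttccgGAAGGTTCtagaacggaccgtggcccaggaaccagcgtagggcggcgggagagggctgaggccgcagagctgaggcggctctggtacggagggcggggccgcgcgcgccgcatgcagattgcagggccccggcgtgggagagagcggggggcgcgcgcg
The match begins 124 bases before the start site in Dnaja1, 120 before it in Hspb6 and 139 before it in Hspd1. Dnaja4 has 2 matches, at 90 and 52 bases before the start, and in Hspb8 the match begins 2 bases after it.

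The libraries differed in depth and in RNA of other cell types along with the genotype. Reads in genes numbered 2.58 M to 4.2 M in KO libraries and 4.09 M to 5.14 M in WT libraries, a mean within-batch log2 difference of -0.41 (two-sided exact permutation test within batches, p = 0.0278, the smallest that 36 arrangements can give). Tek itself had 0, 7, 0 and 14 reads in the KO libraries and 0 to 40 in the WT libraries, with a log2 fold change of 0.87 ± 0.95 (SE, edgeR adjusted p = 0.52), too few reads to check the labels. Purkinje cell markers were present, and their summed CPM (reads of a gene scaled to the TMM-adjusted total of its library) was 7140 to 9540 in KO and 7320 to 8430 in WT (exact permutation p = 0.222). Of 18 tested Purkinje cell markers, 5 were called higher and 2 lower, against 10.9% higher and 13.4% lower over all tested genes. Marker sums of granule cells were 703 to 2020 CPM in KO and 533 to 1040 CPM in WT (12 of 16 tested markers called higher), and those of astroglia 806 to 1840 CPM in KO and 699 to 1000 CPM in WT (10 of 17 higher, 1 lower). Sums of oligodendrocytes were 495 to 1220 CPM in KO and 435 to 901 CPM in WT (3 of 17 higher), and those of interneurons 248 to 394 CPM in KO and 167 to 273 CPM in WT (5 of 10 higher). Each of these 4 sums was higher in KO with an exact permutation p of 0.0278. Sums for microglia (25.1 to 130 CPM in KO, 37.4 to 69.1 in WT), endothelial and mural cells (33.5 to 157 in KO, 25.4 to 186 in WT) and choroid plexus (267 to 609 in KO, 273 to 426 in WT) had p-values of 0.25, 0.194 and 0.222 in the same test. Of their tested markers, 3 of 9, 1 of 12 and 2 of 5 were called higher, and 0 were called lower. No marker of any of these lists was at 0 in every library. In the KO libraries the sums for granule cells and astroglia were highest in M456, the shallowest library, and lowest in M390 of batch 2.

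Of the 68 tested members, 9 were higher and 10 were lower in KO at an adjusted p under 0.05 (quasi-likelihood test of edgeR, batch in the model, Benjamini-Hochberg adjustment over all 13375 tested genes). These 19 members are 27.9% of those tested, and the background of all tested genes is 24.4%. The higher ones are 13.2% of the members against a background of 10.9%, and the lower ones 14.7% against 13.4%, so both shares lie near those of genes in general. The median log2 fold change was 0.04 over the members and -0.02 over all tested genes. The share of all reads that fell in the 81 members was 0.847% to 0.863% in KO libraries and 0.803% to 0.860% in WT libraries. In bulk RNA of this kind fewer cells of a type and less RNA per cell cannot be told apart.

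The calls rest on few libraries. Without KO M456, which leaves batch 3 with WT libraries only, 0 members were called in either direction by edgeR. At an unadjusted p under 0.05, 6 members were then higher and 9 lower, and of all genes 1187 and 1942. The 19 members kept their signs without M456. Log2 fold changes ran from 0.25 for Dnajc10 to 1.78 for Hspb8 among the higher ones. Among the lower ones they ran from -3.01 for Hspb6 to -0.34 for Dnajb1. Without WT M379, which leaves batch 1 with KO libraries only, 2 were higher (Dnaja1 and Hspb8) and 1 was lower (Hsf1). Without KO M390 the counts were 15 higher and 13 lower, and without WT M386, its batch partner, 16 and 13; without WT M476 they were 14 and 12. Dnajb1 and Hsf4 were no longer called without KO M374 (edgeR adjusted p = 0.0608 and 0.0569), nor were Dnajb5, Dnajc1 and Dnajc17 (0.0591, 0.0597 and 0.0872), which were also not called without WT F473, M477, M479 or M480. Dnajc17 was not called without KO F371 either (edgeR adjusted p = 0.0655). With no batch term Hspb8, Dnajb14, Dnajb5, Dnaja4, Dnajb1 and Dnajc17 were not called, and limma-voom with sample weights did not call Hspa2 and Dnajc17. With the log2 library total as a covariate 0 members were called (3 higher and 5 lower at an unadjusted p under 0.05), and with the summed granule cell, astroglia and oligodendrocyte markers as a covariate 0 were called (2 and 1). With every library thinned to the total of the smallest, 11 members were higher and 9 lower. Of these, 8 and 9 were among those called with all reads. The part of depth and of other cell types in each result was not tested beyond these fits.

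**Figure D1:**
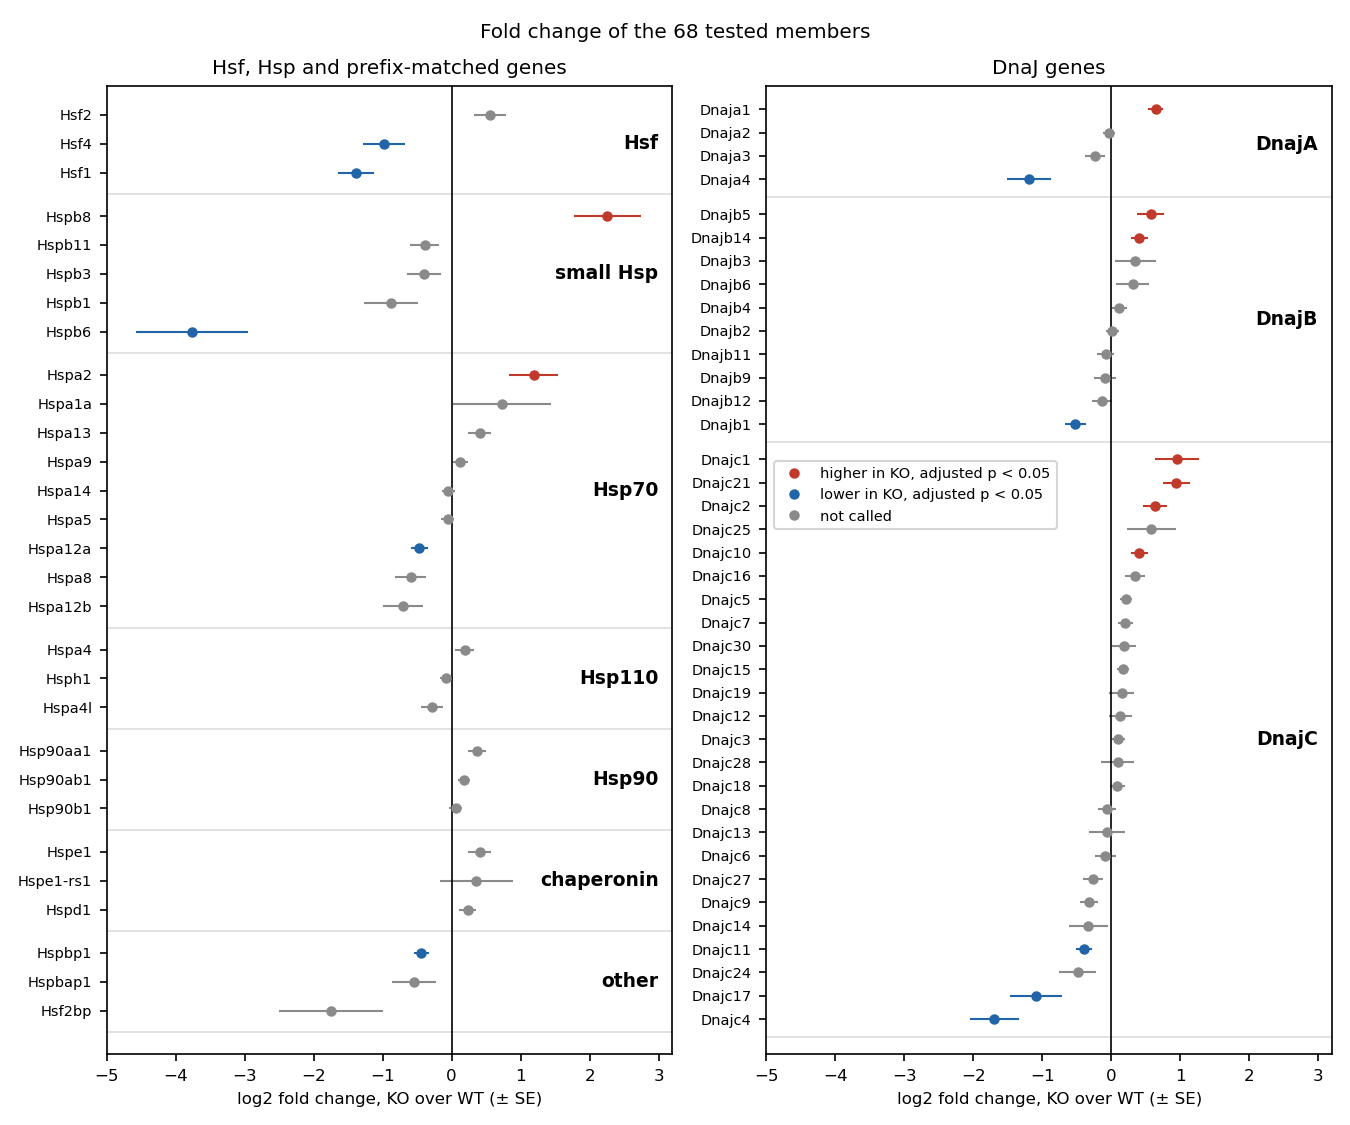
Log2 fold change, KO over WT (horizontal axis), with its standard error as a bar, for each of the 68 tested members, grouped by family; red points were called higher in KO, blue points lower and grey points were not called at an adjusted p of 0.05. Values run from -3.76 for Hspb6 to 2.26 for Hspb8, and called members of both directions stand in the DnajA, DnajB, DnajC, Hsp70 and small Hsp groups.

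The heat shock factors had 2 of 3 tested genes lower in KO. Hsf1 (ENSMUSG00000022556, chromosome 15 from 76477362 to 76501155 in GRCm38), the transcription factor that switches on chaperone genes in the heat shock response, had 76.2, 25.9, 46.8 and 36.8 CPM in KO libraries F371, M374, M390 and M456, against 104 CPM at the lowest, 133 at the median and 151 at the highest WT library. The 4 KO values all lay below the 7 WT values, as they did, in either direction, for 11 of the 68 tested members (16.2%) and 12.9% of all tested genes. The fitted log2 difference of KO from WT was -1.39 ± 0.27 (standard error, edgeR adjusted p = 0.00366), and the log2 ratios within batches 1, 2 and 3, from mean CPM + 0.5, were -1.04, -1.15 and -1.88. These ratios spanned less than those of any other called member with a log2 fold change under -1. Without KO M456 the log2 fold change was -1.09 ± 0.31 and did not pass (edgeR adjusted p = 0.0731). Under the library total and marker covariates its log2 fold change was -0.91 ± 0.38 and -0.69 ± 0.36 (edgeR adjusted p = 0.343 and 0.640).

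Hsf4, a factor known from lens development, had 15.9, 8.55, 16.9 and 13.6 CPM in KO libraries, in the order F371, M374, M390 and M456 used for all KO values, against 15.03, 26.8 and 36.7 CPM as lowest, median and highest in WT. Its log2 fold change was -0.99 ± 0.30 (edgeR adjusted p = 0.0288), and the lowest WT library lay among the KO values. Hsf2, which can pair with Hsf1 on DNA, had 117, 130.0, 97.4 and 76.3 CPM in KO libraries and 19.4, 45.2 and 95.8 CPM in WT. Its fold change of 0.55 ± 0.23 did not pass the test (edgeR adjusted p = 0.086). The within-batch log2 ratios of Hsf2 were 0.39, 0.02 and 0.99, and it was called higher when the batch term, M390, M386 or M476 was left out. Hsf5 was not tested: it had 41 reads in KO, of which 31 were in M390, and 40 reads in WT. No read was counted for Hsf3.

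Of the 9 tested Hsp70 genes, 1 was higher and 1 was lower in KO. Hspa2, an Hsp70 known for its part in sperm formation in the mouse, had 22.5, 46.6, 20.0 and 15.6 CPM in KO libraries, against 4.88, 8.33 and 11.7 CPM in WT. The groups did not overlap, and the log2 fold change was 1.19 ± 0.36 (edgeR adjusted p = 0.0272), with 0.23 ± 0.51 under the marker covariate. By limma-voom with sample weights Hspa2 was not called, at 1.15 ± 0.44 (limma adjusted p = 0.0684). Hspa12a, a distant member of the family found in brain, had 169, 133, 241 and 197 CPM in KO libraries, against 243, 293 and 319.6 CPM in WT. Its values did not overlap either, M390 lying just under the lowest WT library, and the log2 fold change was -0.47 ± 0.12 (edgeR adjusted p = 0.0129). The gene overlaps Eno4, which was also lower in KO, with a log2 fold change of -1.81 ± 0.60 (edgeR adjusted p = 0.0398), at a mean of 1.78 CPM in KO and 5.32 CPM in WT. The strand setting of the counting is not given in the sources used here, so reads of overlapping genes may have been mixed or dropped.

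The common Hsp70 genes of each compartment did not pass the test. Hspa8, the constitutive Hsp70 of the cytosol, had 22.2, 19.2, 49.6 and 42.7 CPM in KO libraries, against 43.5, 52.0 and 57.3 CPM in WT, with a log2 fold change of -0.59 ± 0.23 (edgeR adjusted p = 0.0673). Its 2 low libraries were the KO libraries of batch 1, with a within-batch log2 ratio of -1.45 there, -0.07 in batch 2 and -0.19 in batch 3, and it was called lower without M390 or M386. Many processed copies of Hspa8 lie elsewhere in the genome, so its count is uncertain. The share of multiply aligned reads, kept apart from the gene counts, was higher in KO within each batch. It was 10.6% and 10.25% in KO against 9.41% in WT of batch 1, and 8.83% against 8.56% in batch 2. In batch 3 it was 9.39% in KO against 7.91% to 8.70% in WT, and its part in the counts was not tested. Hspa5, the Hsp70 of the endoplasmic reticulum (ER) also called BiP, had 332, 313, 375 and 424 CPM in KO and 362, 378.7 and 416 CPM in WT, with a log2 fold change of -0.06 ± 0.10 (edgeR adjusted p = 0.687). Hspa9, the mitochondrial Hsp70, had 259, 270.0, 278 and 274 CPM in KO and 178, 246 and 280.2 CPM in WT, a log2 fold change of 0.12 ± 0.11 (edgeR adjusted p = 0.429). For both of these genes the ranges of the groups overlapped.

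The stress-inducible pair Hspa1a and Hspa1b gave few reads. Hspa1a had 6.35, 7.96, 3.06 and 1.60 CPM in KO libraries and 0.45, 2.16 and 2.76 CPM in WT, with a log2 fold change of 0.73 ± 0.71 (edgeR adjusted p = 0.470). Hspa1b had 24 reads over the KO libraries and 11 over the deeper WT libraries, too few to be tested in the main fit. With no filter on low counts it was called higher in KO, at 3.08 ± 0.97 (edgeR adjusted p = 0.0363). It was also called higher with a filter of 1 CPM in 4 libraries and by the Wald test of DESeq2. The coding sequences of Hspa1a and Hspa1b are nearly identical, so the split of reads between them is uncertain. Hspa1l, which neighbours them, had 15 KO reads, all in M390, and 56 WT reads. Of the remaining Hsp70 genes, Hspa13 at 0.41 ± 0.17, Hspa14 at -0.05 ± 0.10 and Hspa12b at -0.71 ± 0.29 did not pass (edgeR adjusted p = 0.0813, 0.756 and 0.0887). Hspbp1, a nucleotide exchange factor of Hsp70, fell: it had 126, 114, 119.9 and 145 CPM in KO libraries, against 160.0, 181 and 203 CPM in WT. Its groups did not overlap, the log2 fold change was -0.44 ± 0.11 (edgeR adjusted p = 0.0102), and the within-batch log2 ratios of -0.60, -0.41 and -0.31 were close to each other. Hsf2bp and Hspbap1 did not pass.

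None of the 3 Hsp110, 3 Hsp90 and 3 mitochondrial chaperonin genes tested was called by edgeR at an adjusted p of 0.05, and DESeq2 called Hsp90aa1 and Hspe1, which edgeR also called higher without M390, M386 or M476. At an unadjusted p under 0.05, edgeR gave 15 higher and 15 lower over all 68 members. Over all 13375 tested genes it gave 2461 higher and 2824 lower. Hsph1, the stress-inducible Hsp110, had 248, 266, 308 and 256 CPM in KO libraries and 227, 274 and 309 CPM in WT, a log2 fold change of -0.08 ± 0.10 (edgeR adjusted p = 0.57). Hsp90aa1, the inducible cytosolic Hsp90, had 113, 111, 92.0 and 120.2 CPM in KO and 75.7, 84.8 and 94.5 CPM in WT, so that M390 alone of the KO libraries lay within the WT range. Its log2 fold change was 0.36 ± 0.13 (edgeR adjusted p = 0.0576). Hsp90ab1, the constitutive cytosolic form, had 419.7, 431, 422 and 521 CPM in KO and 370.3, 411 and 422 CPM in WT (log2 fold change 0.18 ± 0.09, edgeR adjusted p = 0.147). Hsp90b1, the ER form, had 207, 190.4, 200.4 and 237 CPM in KO and 193, 208 and 215 CPM in WT (log2 fold change 0.06 ± 0.09, edgeR adjusted p = 0.680). In both genes M456 was the highest of all 11 libraries. Hspe1, the lid of the mitochondrial chaperonin, had 63.5, 61.6, 53.6 and 69.1 CPM in KO and 40.9, 45.2 and 51.1 CPM in WT: the groups did not overlap, yet the log2 fold change of 0.40 ± 0.16 missed the threshold (edgeR adjusted p = 0.0789). Hspd1, its barrel and divergent neighbour on chromosome 1, had 113, 112, 101 and 148 CPM in KO and 96.2, 105 and 114 CPM in WT (log2 fold change 0.24 ± 0.12, edgeR adjusted p = 0.170). Both chaperonin genes have processed copies, 11 of them among the 14 pseudogene symbols left out by the rule, and all 14 together took 174 reads.

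The small heat shock proteins held the largest changes of either direction. Hspb6 (ENSMUSG00000036854, chromosome 7 from 30552535 to 30555443), also called Hsp20, had 0, 0, 87 and 2 reads in KO libraries, or 0, 0, 20.5 and 0.799 CPM, against 27.0, 30.9 and 53.9 CPM as lowest, median and highest in WT. All KO values lay below all WT values, with M390 far above the other KO libraries. The fitted log2 fold change was -3.76 ± 0.81 (edgeR adjusted p = 0.00574), a value that depends on the prior count where libraries hold no read. Within batch 1, 0 reads in KO against 129 in WT put it at least 69.2-fold lower in KO, taking 3 reads over the KO libraries of the batch as the floor. In batch 2 the WT to KO ratio of reads per total was 1.49 (95% exact counting interval 1.13 to 1.97), and in batch 3, with 2 KO reads, 53.5 (14.8 to 443). Such intervals cover counting error only. Hspb6 overlaps Lin37, which was lower in KO as well, with a log2 fold change of -1.21 ± 0.27 (edgeR adjusted p = 0.00664) and the smallest of its within-batch log2 ratios in batch 2 too (-1.41, -0.13 and -1.86).

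Hspb8 (ENSMUSG00000041548, chromosome 5 from 116408491 to 116422864), which works with Bag3 in the clearance of misfolded proteins, had 3.46, 17.4, 0.47 and 33.6 CPM in KO libraries, against 0.23, 4.62 and 7.20 CPM in WT. The groups overlapped: both libraries of batch 2 were near 0, with 2 reads in KO and 1 in WT, and the KO libraries M374 and M456 stood above all WT libraries. The log2 fold change was 2.26 ± 0.48 (edgeR adjusted p = 0.00566), and with the marker sum as a covariate its sign turned to -0.18 ± 0.93. M374 and M456 were also the KO libraries with the highest sums of granule cell, astroglia and oligodendrocyte markers. Hspb1, or Hsp27, had 5.77, 7.07, 8.70 and 4.39 CPM in KO and 10.3, 11.2 and 20.1 CPM in WT. Its groups did not overlap, but its log2 fold change of -0.88 ± 0.39 did not pass (edgeR adjusted p = 0.106). Hspb3 and Hspb11, at -0.40 ± 0.24 and -0.39 ± 0.21, did not pass (edgeR adjusted p = 0.241 and 0.169), and Hspb2, Hspb7 and Hspb9, with 0 reads in KO and 6, 2 and 2 in WT, were not tested. Genes were placed in this family by symbol alone, Hspb11 among them.

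**Figure D2:**
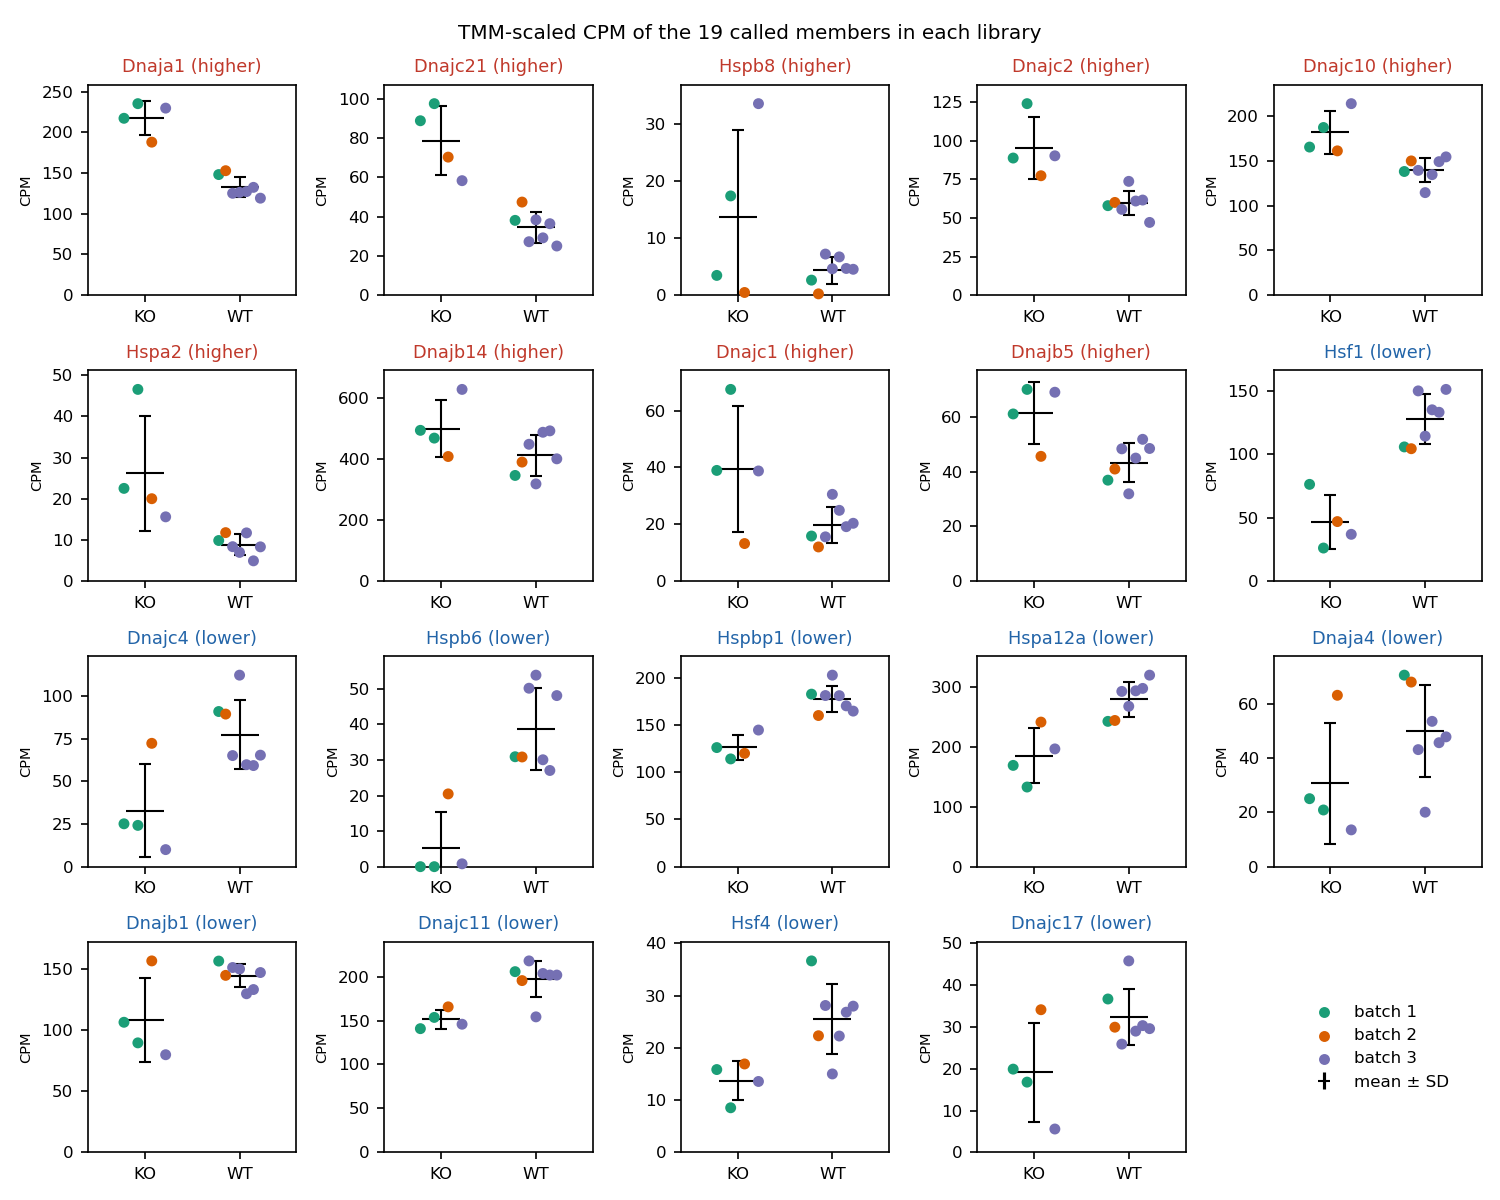
Level of each called member in every library (vertical axis, TMM-scaled CPM, from 0), KO at the left and WT at the right of each panel, with batch as colour and the mean ± SD of each group as a line and bar; bars are drawn down to 0 only. For Hsf1 the KO libraries lie between 25.9 and 76.2 CPM and the WT libraries between 104 and 151, whereas for Dnajb1 the KO library of batch 2 (157 CPM) lies above every WT library.

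Of the 4 DnajA genes, all tested, Dnaja1 was higher and Dnaja4 lower in KO. Dnaja1 (ENSMUSG00000028410, chromosome 4 from 40722468 to 40734965), a cytosolic J protein of class A that hands clients to Hsp70, had 217, 235, 188 and 229.7 CPM in KO libraries, against 119, 127 and 153 CPM in WT. The groups did not overlap. The mean was 218 ± 21.1 CPM in KO and 133 ± 12.6 CPM in WT (SD, n = 4 and 7), and the log2 fold change of 0.64 ± 0.11 had the smallest p of all members (edgeR adjusted p = 0.00236). Its within-batch log2 ratios were 0.61, 0.30 and 0.86. Without M456 it was 0.48 ± 0.13 (edgeR adjusted p = 0.0654), and it was 0.39 ± 0.14 and 0.41 ± 0.18 with the library total and the marker sum as covariates (edgeR adjusted p = 0.284 and 0.595). Dnaja4, a paralog of the same class, had 25.1, 20.9, 63.3 and 13.6 CPM in KO libraries, against 20.1, 47.9 and 70.7 CPM in WT. Its log2 fold change was -1.20 ± 0.32 (edgeR adjusted p = 0.0153), with ratios of -1.60, -0.11 and -1.60 in the 3 batches, of which that of batch 2 lay nearest 0. The log2 fold changes of Dnaja2, at -0.04 ± 0.09, and of Dnaja3, the mitochondrial member, at -0.23 ± 0.14, did not pass (edgeR adjusted p = 0.772 and 0.232).

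Among 10 tested DnajB genes 2 were higher and 1 was lower in KO. Dnajb14, a J protein of the ER membrane, had 495, 469, 409 and 629 CPM in KO libraries, against 319, 401 and 493 CPM in WT (log2 fold change 0.41 ± 0.13, edgeR adjusted p = 0.0293). Dnajb5 had 61.2, 70.1, 45.6 and 69.1 CPM in KO, against 31.9, 45.0 and 51.9 CPM in WT (0.57 ± 0.19, edgeR adjusted p = 0.0431). In both genes M390 lay within the WT range, as did M374 for Dnajb14. The within-batch log2 ratios of Dnajb14 and Dnajb5 were 0.07 and 0.15 in batch 2, against 0.48 and 0.82 in batch 1. Dnajb1, the stress-inducible partner of Hsp70 in the cytosol, had 106, 89.6, 157 and 79.9 CPM in KO libraries, against 129.8, 147 and 156 CPM in WT. M390 was the highest of all 11 libraries and the other KO libraries the lowest, so the log2 fold change of -0.52 ± 0.15 (edgeR adjusted p = 0.0229) joins ratios of -0.67 and -0.83 in batches 1 and 3 with 0.11 in batch 2. Dnajb2, Dnajb3, Dnajb4, Dnajb6, Dnajb9, Dnajb11 and Dnajb12 had log2 fold changes between -0.14 and 0.35 and did not pass, and Dnajb7, Dnajb8 and Dnajb13 were not tested. Dnajb9 and Dnajb11, which serve BiP in the ER, stood at -0.09 ± 0.16 and -0.08 ± 0.12.

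The DnajC genes, a mixed class that shares only the J domain, had 4 higher and 3 lower of 25 tested. Dnajc21, known in humans for its part in maturing the large ribosomal subunit, had 88.8, 97.6, 70.3 and 58.3 CPM in KO libraries, against 25.04, 36.4 and 47.4 CPM in WT. The groups did not overlap, the log2 fold change was 0.94 ± 0.19 (edgeR adjusted p = 0.00477), and the within-batch log2 ratios of 1.28, 0.56 and 0.89 were all positive. Without M456 it was 0.97 ± 0.26 (edgeR adjusted p = 0.0673). Dnajc2, which sits on the ribosome with the Hsp70 of Hspa14, had 88.8, 124, 77.4 and 90.3 CPM in KO, against 47.1, 60.1 and 73.7 CPM in WT, again without overlap (0.63 ± 0.17, edgeR adjusted p = 0.0184). Dnajc10, a reductase of the ER lumen also called ERdj5, had 166, 187, 161 and 214 CPM in KO, against 115, 139.5 and 155 CPM in WT, also without overlap (0.41 ± 0.12, edgeR adjusted p = 0.0255). These 3 genes and Dnaja1, Hspa2 and the uncalled Hspe1 were the members whose 4 KO values all lay above the 7 WT values.

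Dnajc1, a J protein of the ER membrane, had 38.9, 67.5, 13.2 and 38.8 CPM in KO libraries, against 12.0, 19.1 and 30.5 CPM in WT (0.95 ± 0.32, edgeR adjusted p = 0.0391). M390 lay within the WT range, and the within-batch log2 ratios were 1.72, 0.13 and 0.80. Dnajc1 overlaps Mllt10, which was higher in KO by 1.01 ± 0.26 on the log2 scale (edgeR adjusted p = 0.0126), with a batch 2 ratio of 1.13 that Dnajc1 did not show.

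The lower DnajC genes had wider spreads. Dnajc4 had 25.1, 24.2, 72.2 and 9.99 CPM in KO libraries, against 59.2, 65.3 and 112 CPM in WT, and its log2 fold change was -1.69 ± 0.35 (edgeR adjusted p = 0.00476). M390 again lay among the WT libraries, with a within-batch log2 ratio of -0.31 against -1.86 in batch 1 and -2.79 in batch 3. Dnajc17, known for a part in splicing, had 19.9, 16.8, 34.1 and 5.59 CPM in KO, against 25.9, 29.9 and 45.8 CPM in WT (-1.09 ± 0.38, edgeR adjusted p = 0.0485). Its within-batch log2 ratio was 0.19 in batch 2 and -0.98 and -2.42 in batches 1 and 3, and Zfyve19, which overlaps it, stood at -0.16 ± 0.14 without passing (edgeR adjusted p = 0.413). Dnajc11, found with the mitochondrial contact site complex, had 141, 154, 166 and 146 CPM in KO, against 154, 202 and 218 CPM in WT (-0.40 ± 0.12, edgeR adjusted p = 0.0241). Its lowest WT library, M476, was the only WT library within the KO range.

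Of the other 18 tested DnajC genes none was called by edgeR, and their log2 fold changes ran from -0.49 for Dnajc24 to 0.58 for Dnajc25. Dnajc5, the cysteine string protein of synaptic vesicles, had 429.5, 425, 339.6 and 613 CPM in KO libraries, against 352, 460.1 and 494 CPM in WT (log2 fold change 0.21 ± 0.09, edgeR adjusted p = 0.0858), with KO libraries at both ends of the range. Dnajc6, the auxilin that uncoats clathrin vesicles in neurons, stood at -0.08 ± 0.15. Dnajc13, of endosomes, stood at -0.06 ± 0.26, and Dnajc3, an ER partner of BiP, at 0.10 ± 0.10 (edgeR adjusted p = 0.706, 0.877 and 0.470 for these 3). Dnajc15 and Dnajc19, of the mitochondrial import motor, had 0.17 ± 0.09 and 0.15 ± 0.18 (edgeR adjusted p = 0.173 and 0.564). Dnajc22 had 0 KO reads and 3 WT reads, and Dnajc5b and Dnajc5g had none.

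Across the 19 called members, 17 kept the sign of their fold change in all 3 batches, and Dnajb1 and Dnajc17 did not, both turning in batch 2. The size differed more than the sign. Over batches 1, 2 and 3, the 9 higher members had median log2 ratios of 0.87, 0.30 and 0.80, and the 10 lower members had medians of -1.01, -0.27 and -1.21. Batch 2 holds the pair M390 and M386, and its ratio is that of 1 library to another.

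**Figure D3:**
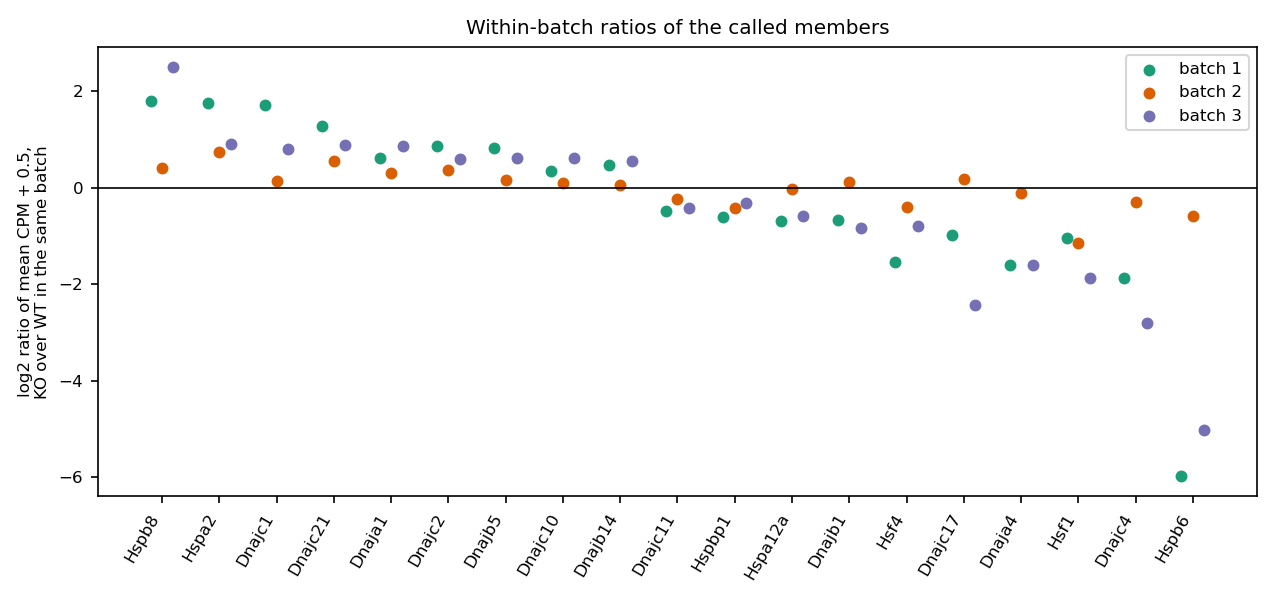
Log2 ratio of mean CPM + 0.5, KO over WT libraries of the same batch (vertical axis), for each called member (horizontal axis), coloured by batch. The points of batch 2 lie nearest 0 for most members, with a median of 0.30 for the higher and -0.27 for the lower ones, and Hsf1 (-1.15) is the member whose batch 2 point is the lowest.

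The wider folding machinery also had calls in both directions. Of 39 tested genes listed as co-chaperones or partners of Hsp70 and Hsp90, 7 were higher and 10 lower in KO, with a median log2 fold change of -0.14. The list is broad and takes in Hyou1, which was not called, and Tsc2. Tsc2 is among the 10 lower, at -1.14 ± 0.24 (edgeR adjusted p = 0.00529). Cdc37, which brings kinases to Hsp90, fell by 0.87 ± 0.16 on the log2 scale, and Grpel1, the exchange factor of mitochondrial Hsp70, fell by 1.44 ± 0.25 (edgeR adjusted p = 0.00300 and 0.00271). The Bag exchange factors were split: Bag1, Bag3 and Bag4 stood at 0.54 ± 0.15, 0.48 ± 0.15 and 0.65 ± 0.21, and Bag2 at -1.36 ± 0.28, these 4 called (edgeR adjusted p = 0.0175, 0.0282, 0.0326 and 0.00455). Bag5 and Bag6, at -0.05 ± 0.09 and -0.006 ± 0.18, were not called (edgeR adjusted p = 0.698 and 0.984). The Hsp90 partners Ptges3 and Chordc1 were higher, at 0.49 ± 0.15 and 0.57 ± 0.12, while Ahsa1, which speeds the Hsp90 cycle, and Stub1, the ubiquitin ligase that takes clients from Hsp70, were lower, at -0.41 ± 0.12 and -0.43 ± 0.15 (edgeR adjusted p = 0.0321, 0.00486, 0.0213 and 0.0412). Grpel1 had 47.0, 45.7, 164 and 37.6 CPM in KO libraries and 124 to 179.5 CPM in WT, so that M390 again lay among the WT libraries.

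Of 16 tested genes of the cytosolic chaperonin CCT and prefoldin, 2 were higher and 4 lower, with a median of 0.11. The called CCT subunits were all lower: Tcp1 at -0.67 ± 0.15, Cct7 at -0.42 ± 0.12, Cct4 at -0.43 ± 0.14 and Cct5 at -0.33 ± 0.10 (edgeR adjusted p = 0.00624, 0.0196, 0.0387 and 0.0319). Of 28 tested ER folding genes, 3 were higher and 7 lower, with a median of -0.03. Sec61a1, the channel of the ER translocon, fell by 1.33 ± 0.22 and the lectin chaperone Canx rose by 0.33 ± 0.11 on the log2 scale, and Erp29 rose by 0.42 ± 0.11 (edgeR adjusted p = 0.00236, 0.0378 and 0.0123). Of 27 tested mitochondrial folding and import genes, 2 were higher and 7 lower, with a median of -0.22, and Trap1, the mitochondrial Hsp90, fell by 0.88 ± 0.15 (edgeR adjusted p = 0.00243). Of 20 listed genes known to respond to heat shock through Hsf1, 12 are members themselves, and 19 were tested. Of the 19 tested, 3 were higher (Dnaja1, Chordc1 and Bag3) and 2 lower (Dnajb1 and Ahsa1), with a median of 0.18. The background of all tested genes is 10.9% higher and 13.4% lower with a median of -0.02, and none of these lists was tested as a list. Of the list genes with the smallest p that are no members, Cdc37, Sec61a1 and Trap1 also passed without KO M456 (edgeR adjusted p = 0.0491, 0.0467 and 0.0467), while Grpel1, Tcp1, Cct7, Erp29 and Chordc1 did not (0.0534, 0.0973, 0.0992, 0.299 and 0.109).

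**Figure D4:**
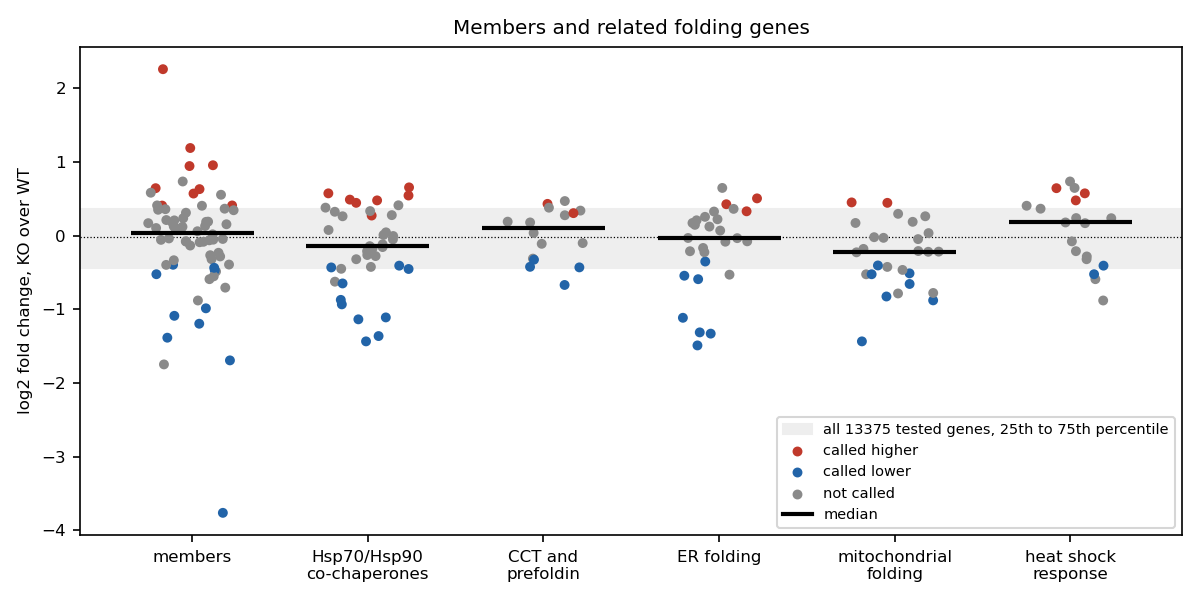
Log2 fold change, KO over WT (vertical axis), of each tested gene of the members and of 5 related lists (horizontal axis; ER is the endoplasmic reticulum), with called genes in red (higher) or blue (lower), others in grey, the median as a black bar, and all tested genes as a grey band from the 25th to the 75th percentile with a dotted median. The medians run from -0.22 (mitochondrial folding) to 0.18 (heat shock response), against -0.02 for all tested genes.

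**Figure D5:**
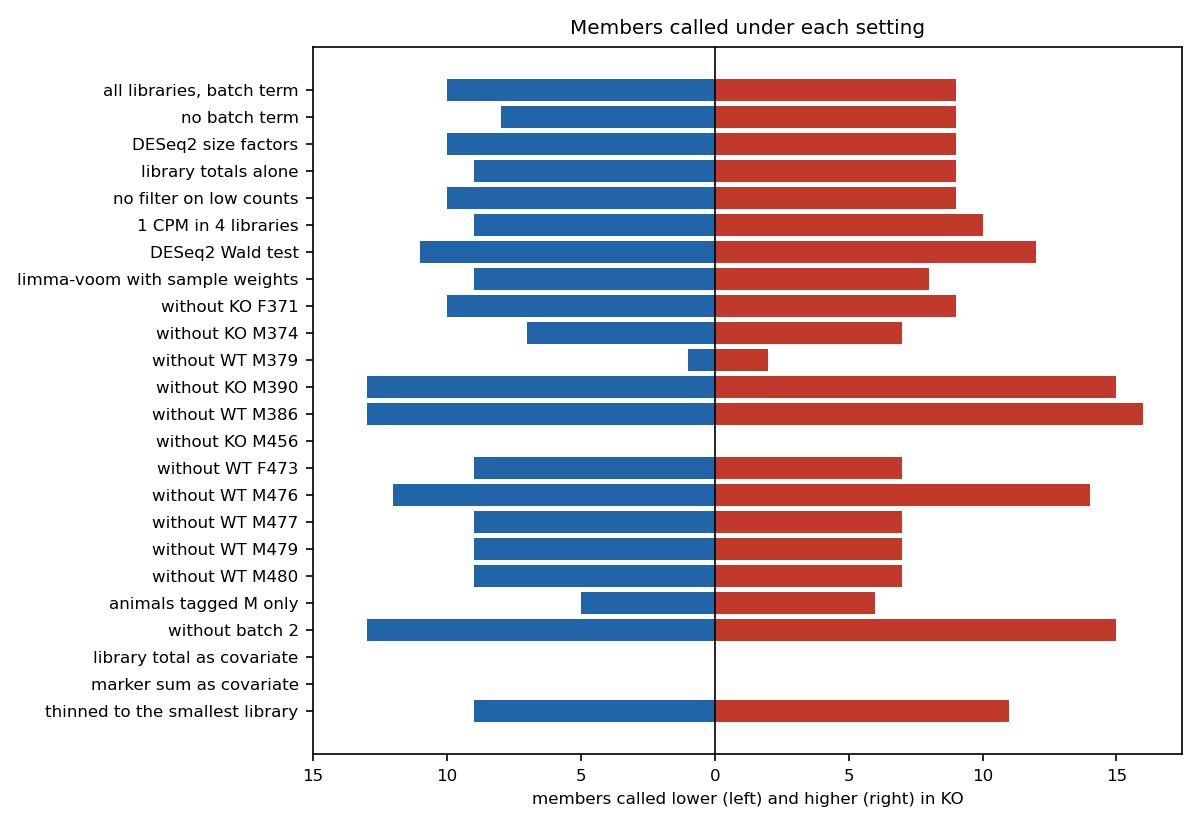
Number of members called higher (right of 0, red) and lower (left of 0, blue) in KO under each setting of the fit (rows), at an adjusted p of 0.05. The fit with all libraries and a batch term called 9 and 10, the fits without M456, with the library total or with the marker sum called 0 and 0, and the fit without M386 called 16 and 13.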

How the data were processed

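The deposited files hold whole-number read counts per gene, 1 file per library, made by the authors with STAR and HTSeq on GRCm38 per the submitters' processing notes; for versions, strand setting and other counting options the sources used here give nothing. They are not normalized, and 5 summary lines per file that name no gene were left out.

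All 11 libraries were fitted with edgeR 4.0.16 in R 4.3.3 (filterByExpr on genotype, TMM factors, quasi-likelihood model with batch and genotype, 7 residual degrees of freedom). Benjamini-Hochberg adjustment of the two-sided p-values ran over the 13375 genes kept, with a threshold of 0.05. The step was tested on simulated data. An SE was taken as the size of the log2 fold change over the square root of F. CPM values are TMM-scaled, and within-batch ratios add 0.5 CPM, which understates changes of genes with few reads. CPM means are not adjusted for batch. Positions and promoters came from RefSeq tables of the same build, matched by symbol.

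Named genes were the called members (at most 15 in each direction), a fixed set of main chaperones and factors, the 2 called genes with the smallest p of each list, and Tek. Other genes were named for their role in a family or list after their values were seen. A planned ranking of members by level per transcript length was not made, since the tables used give no transcript lengths, so levels are compared between libraries and not between genes. The members, lists and tests were chosen with earlier results of these data known.

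Alternatives were no batch term, DESeq2 1.42.0 size factors and Wald test, unscaled library totals, a filter of 1 CPM in 4 libraries or none, limma 3.58.1 voom with sample weights, each library left out, animals tagged M only, batch 2 left out, thinning to the smallest library, covariates for library total and marker sum, and other thresholds.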

Additional observations from a re-analysis of the deposited data

Results flagged for a closer look

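In 64 groups of KO or WT values of the named members, 4 held a library whose gap to the nearest other library was large against the range of its group, and chance gives such a gap in about 1 in 20 groups. Hspb6 was at 20.5 CPM in KO M390, against 0 to 0.799 CPM in the other KO libraries. Hsp90ab1 was at 520.9 CPM in KO M456, against 419.7 to 430.6 CPM in the other KO libraries. In WT M476, Dnajc11 was at 154 CPM, against 195 to 218 CPM in the other WT libraries, and Hspa9 was at 178 CPM, against 237 to 280.2 CPM.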

How the results depend on the processing

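With each library left out in turn, members called ranged from 0 to 16 higher and 0 to 13 lower in KO, and all genes from 64 to 2269 higher and 216 to 2397 lower, against 9, 10, 1461 and 1796 with all libraries. With animals tagged M only, 5 members were lower. Without batch 2, 15 members and 2262 of all genes were higher. With the library total or the marker sum as a covariate, all 4 counts were 0 by edgeR; at an unadjusted p under 0.05 all genes then gave 836 higher and 1005 lower, and 411 and 663. Thinned to the smallest library, the counts were 11, 9, 1540 and 1567. At a threshold of 0.01 the counts were 3, 3, 511 and 760, and at 0.1, 15 members were higher. The cause of these changes was not tested.

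Signs turned with the marker sum as a covariate for Hspb8 (-0.18) and Hspa9 (-0.10), and with the library total for Hsp90ab1 (-0.064), Hsp90b1 (-0.10) and Hspd1 (-0.081). Leaving out libraries moved Hspa1a between -0.041 (without M379) and 1.30, Hspa5 between -0.22 and 0.11 (0.0082 without M374), and Hsp90b1 between -0.052 and 0.15. Without the batch term 9 members were higher and 8 lower, of which 6 and 7 were among those called with it. No paired analysis was possible because the labels give KO and WT no shared replicate numbers; batch is a term of the fit. Depth limits what can be seen in the 13 untested members, and 3 reads are worth 0.583 to 1.16 CPM per library.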
